A study of Rattus norvegicus with 2 samples.

Results

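Ribosome biogenesis and RNA polymerase I (Pol I) genes were followed on 2 arrays of rat C6 glioma cells, 1 of cells treated with small molecules (labelled SMiG) and 1 of undifferentiated cells (labelled C6). Genes were taken by symbol: those that begin with Utp, Nop, Rrp or Polr1, and 18 further names such as Fbl, Ncl and Ubtf. The rule found 53 probe sets for 50 genes, of 18166 genes in all. Npm1 and Dkc1, also named by the rule, are not among the 50, since no probe set carried either symbol alone. A probe set shared by Npm1 and Npm1-ps9 was left out, with log2 values of 8.18 in SMiG and 9.18 in C6.

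C6 is an established rat glioma line, and both cultures were grown with 10% serum. The compounds of the SMiG culture are given in 2 ways. The sample's labels name forskolin, which activates adenylyl cyclase, rapamycin, which inhibits the growth kinase complex mTORC1, and I-BET151, which blocks BET bromodomain proteins. The treatment text given with each sample instead lists 20 µM CHIR99021, which inhibits the kinase GSK3, and 100 µM forskolin, over 35 days. The series asks whether treated glioma cells become glia-like and divide less. Each group was 1 array, so replicate error is unknown, and differences are given as sizes without p-values.

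Ribosomes are built in the nucleolus. Pol I copies the ribosomal DNA into a long precursor RNA, small nucleolar RNPs (snoRNPs) mark it for chemical modification, and large assemblies of factors cut and fold it into the small (40S) and large (60S) subunits. The pathway is known to follow cell growth, and mTORC1 and the transcription factor MYC are known to drive it.

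The values are log2 expression as deposited, and each difference is SMiG minus C6 on the log2 scale. A gene counted as detected if it lay above a floor on at least 1 array. The floor was the 95th percentile of 1341 olfactory and vomeronasal receptor genes taken as silent, at 4.96 for SMiG and 4.83 for C6. The SD of the difference over those silent genes was 0.32. In this set 2.09% passed 1.5-fold on the low side in SMiG and 4.70% on the high side. This gives a technical scale at low signal, since only 77 of the 1341 were detected, and holds no variation between cultures. All 9 glial and glioma markers checked, among them S100b, Sox10 and Vim, were above the floor on both arrays. Their levels differed, with differences of 1.52 for Cnp, 1.20 for S100b, 1.16 for Sox2 and 1.01 for Sox10, down to −0.56 for Gfap. Of 6 microglial and macrophage markers, 0 in SMiG and 1 in C6 (Cd68) lay above it. Neuron markers above the floor numbered 2 of 5 in SMiG and 3 of 5 in C6, endothelial ones 2 of 3 on each array, and fibroblast ones 1 of 4 in SMiG and 2 of 4 in C6. Among these, Col1a1 had a difference of −1.15 and Tek of −0.86. The part of all these markers in the results below was not tested.

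Most ribosome biogenesis genes had a lower value in SMiG, each by less than 2-fold. Of the 50 genes 40 (80%) had a negative difference, against 43.7% of all 18166 genes, and the median of the 50 was −0.41. At 1.5-fold, which is 0.58 on the log2 scale, 13 of the 50 (26%) were lower, against 9.64% of all genes. Among detected genes alone the shares lay closer, at 27.1% of the 48 detected members against 15.1% of the 10942. None was at least 1.5-fold higher, against 7.41% of all genes and 10.4% of the detected. None of the 50 passed 2-fold in either direction, where 6.52% of the detected genes were lower and 3.19% were higher. Outside the 50, the probe set shared by Npm1 and Npm1-ps9 did, with a difference of −1.001. In total RNA of a culture, fewer cells holding a transcript and less of it per cell cannot be told apart.

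Not each member could be read equally well. Above the floor on both arrays were 47 genes, of which 39 were lower in SMiG with a median of −0.44. Among all 10065 genes above both floors, 49.1% were lower and the median was 0.0022. Polr1g passed the floor on the C6 array alone, which favours a negative difference, at 4.81 in SMiG and 5.14 in C6, a bound of at least 1.13-fold lower. Nop10, a small protein of the snoRNPs that guide pseudouridylation, was below both floors at 4.09 in SMiG and 4.05 in C6. So was Polr1has, at 3.55 in SMiG and 3.32 in C6. The symbol prefix alone brought Polr1has in, and it is not counted among the Pol I subunits below. The 48 detected genes, Polr1g among them, spanned −0.99 (Gnl2) to 0.43 (Polr1d). Their quartiles were −0.60 and −0.17, against −0.35 and 0.29 for all detected genes.

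**Figure D1:**
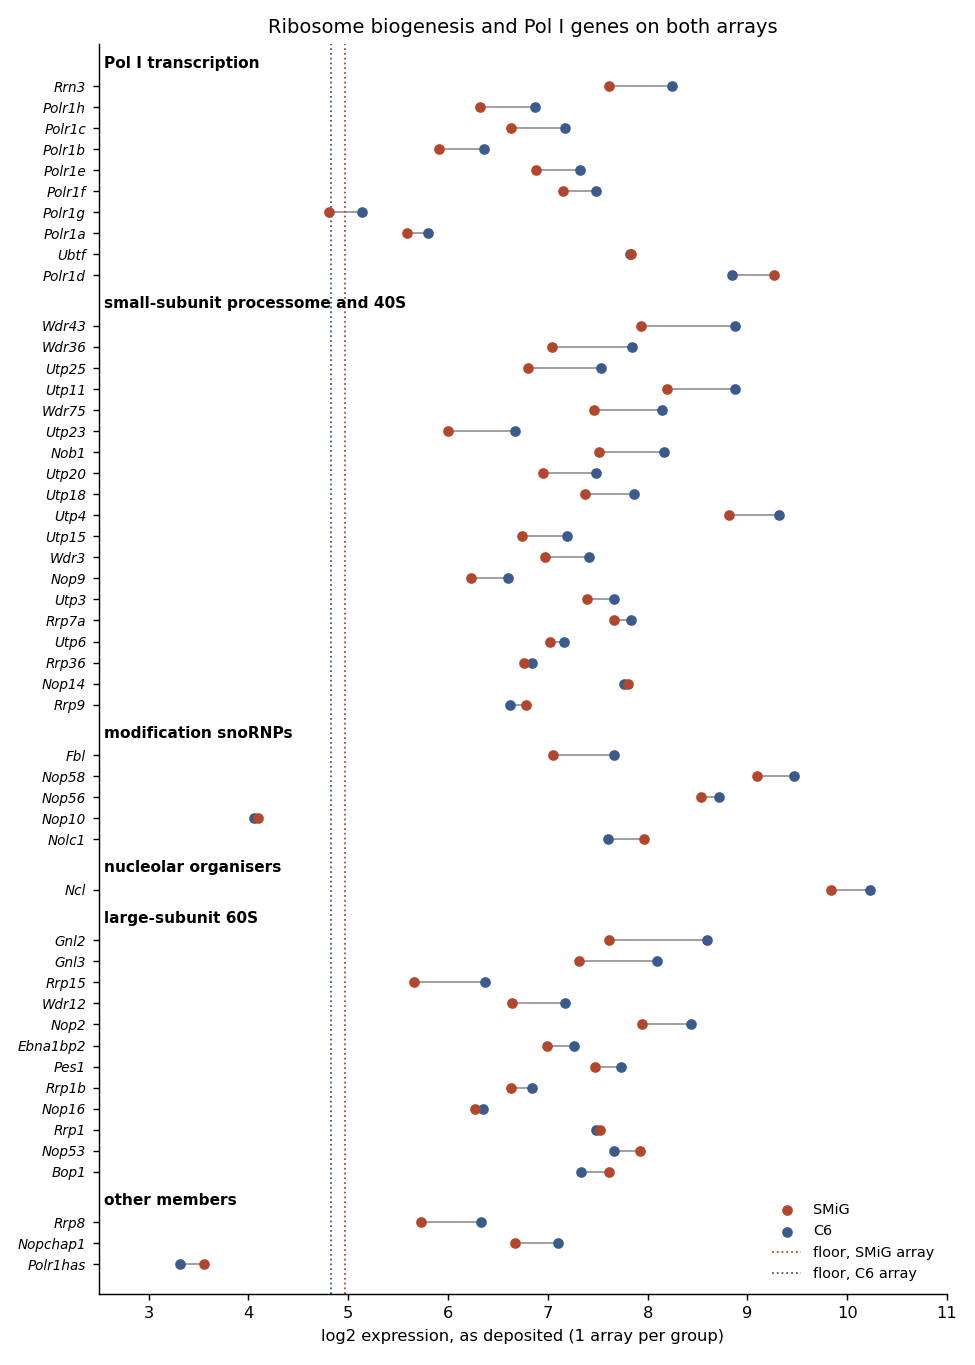
Log2 expression of each of the 50 genes on the SMiG array (red) and the C6 array (blue), grouped by role, with 1 array per group and dotted lines at the floor of each array. The red point lies left of the blue one for 40 of the 50 genes, and Polr1d, Nolc1 and Bop1 show the widest gaps the other way among detected genes.

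**Figure D2:**
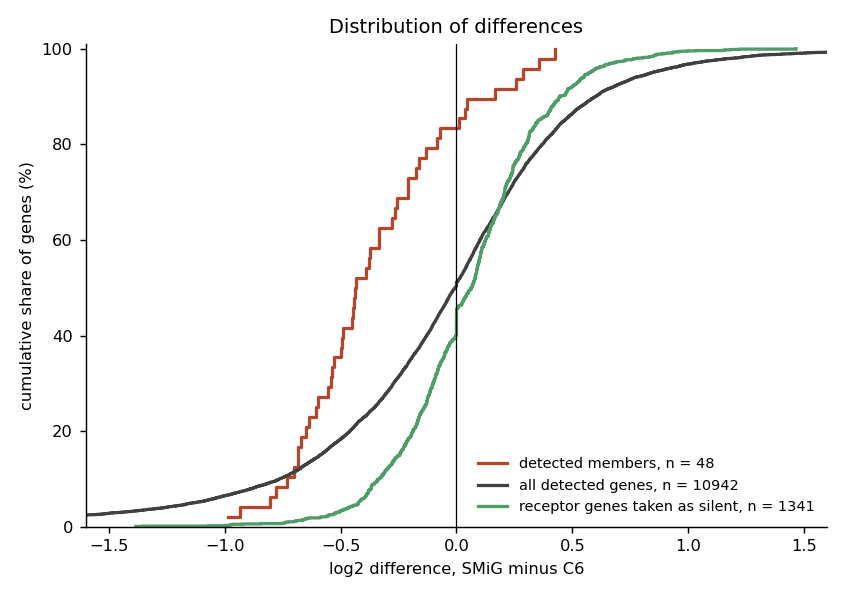
Cumulative share of genes (percent) against the log2 difference, SMiG minus C6, for the 48 detected members, all 10942 detected genes and the 1341 receptor genes taken as silent. At 0 the curve of the members stands at 83.3%, and that of the detected genes close to 50.4%. The members reach neither −1 nor 1.

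Promoter sequences were set beside the values because so many of these genes lay on the same side. RefSeq promoters on the GRCr8 assembly, from 250 bases before to 50 bases after each gene's start, matched 46 of the 50 genes. Gnl2, Wdr43, Utp23 and Bop1 were not among them. Printed 5′ to 3′ on the gene's own strand are those of Gnl3 (chr16:6219733-6220032, minus strand), Utp25 (chr13:107180312-107180611, minus strand), Rrp15 (chr13:100830763-100831062, minus strand) and Fbl (chr1:92597157-92597456, plus strand), 4 genes at least 1.5-fold lower in SMiG that were chosen because they hold the hexamer below, and that of Polr1d (chr12:13118020-13118319, minus strand), the gene with the most positive difference. Capitals mark CACGTG, the E-box hexamer that MYC and MAX are known to bind.
Gnl3: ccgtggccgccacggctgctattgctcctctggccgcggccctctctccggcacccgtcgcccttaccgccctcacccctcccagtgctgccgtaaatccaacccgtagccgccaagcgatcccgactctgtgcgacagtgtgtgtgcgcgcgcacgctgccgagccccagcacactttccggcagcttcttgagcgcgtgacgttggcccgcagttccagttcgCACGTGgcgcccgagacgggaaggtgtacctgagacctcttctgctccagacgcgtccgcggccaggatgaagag
Utp25: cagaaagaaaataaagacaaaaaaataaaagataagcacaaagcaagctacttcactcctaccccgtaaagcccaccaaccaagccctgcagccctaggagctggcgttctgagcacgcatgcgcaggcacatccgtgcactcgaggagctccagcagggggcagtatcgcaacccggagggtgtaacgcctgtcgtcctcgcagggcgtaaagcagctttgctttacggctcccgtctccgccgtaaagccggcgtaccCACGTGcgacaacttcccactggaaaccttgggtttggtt
Rrp15: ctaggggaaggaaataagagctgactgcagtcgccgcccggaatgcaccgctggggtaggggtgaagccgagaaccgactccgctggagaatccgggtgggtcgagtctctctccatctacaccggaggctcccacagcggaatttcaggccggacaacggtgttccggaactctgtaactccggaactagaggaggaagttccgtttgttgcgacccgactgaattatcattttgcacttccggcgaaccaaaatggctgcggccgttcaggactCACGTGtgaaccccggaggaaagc
Fbl: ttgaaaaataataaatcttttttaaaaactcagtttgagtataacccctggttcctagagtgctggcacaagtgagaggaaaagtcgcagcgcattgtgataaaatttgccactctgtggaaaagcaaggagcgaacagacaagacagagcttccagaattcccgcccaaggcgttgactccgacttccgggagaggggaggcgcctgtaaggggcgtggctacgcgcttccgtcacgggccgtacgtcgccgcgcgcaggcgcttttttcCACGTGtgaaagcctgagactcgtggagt
Polr1d: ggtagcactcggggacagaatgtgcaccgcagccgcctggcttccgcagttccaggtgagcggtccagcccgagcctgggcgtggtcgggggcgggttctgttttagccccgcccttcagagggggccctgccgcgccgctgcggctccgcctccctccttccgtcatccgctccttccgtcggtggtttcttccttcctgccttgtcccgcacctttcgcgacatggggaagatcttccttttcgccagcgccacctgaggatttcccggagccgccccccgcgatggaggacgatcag
The hexamer began 25 bases before the annotated start in Gnl3, and 10, 26 and 21 bases after it in Utp25, Rrp15 and Fbl, while the Polr1d window held none.

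Across the matched genes, CACGTG (its own reverse complement) stood in 16 of 46 promoters (34.8%). It stood in 6.65% of all 27457 promoters and in 9.74% of the 8993 promoters of detected genes. The letters ACTTCCG, part of the ETS-type element, were searched on both strands and stood in 11 of the 46 (23.9%), against 6.70% of all and 13.8% of those of detected genes. Neither motif contains the other. Of the 16 genes with CACGTG, 15 were lower in SMiG and 6 passed 1.5-fold, and the group's median difference was −0.50. Of the 30 without it, 22 were lower, 4 by at least 1.5-fold, with a median of −0.30. Those 30 include Nop10 and Polr1has, which lay below both floors and had positive differences. The split by ACTTCCG was narrower: 10 of the 11 genes with it were lower, with a median of −0.44, as were 27 of the 35 without it, with a median of −0.37. Neither gap was tested, and a match is only a string of letters. Both motifs were chosen with earlier results of these data known. The GC content of the members' windows had a median of 59.2%, close to the 60.7% of the promoters of detected genes.

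Pol I subunits, taken with the factors Rrn3 and Ubtf, gave mostly modest differences on the low side. Of these 10 genes, 8 (80%) were lower in SMiG, against 50.4% of detected genes, with a median of −0.39. Among the 8 subunit genes, 7 were lower, none of them by at least 1.5-fold. Of the 10, 1 (10%) was lower by that margin, a smaller share than the 15.1% of detected genes. That gene was Rrn3, encoding the initiation factor (also called TIF-IA) that brings Pol I to the promoter, at 7.61 in SMiG and 8.25 in C6, which is 1.56-fold lower. Polr1h, encoding the subunit that helps cleave RNA in a stalled enzyme, lay just outside that threshold with 6.32 in SMiG, 6.87 in C6 and a difference of −0.55. Polr1c, whose product is shared with Pol III, stood at 6.63 in SMiG and 7.17 in C6. The second-largest catalytic subunit gene Polr1b stood at 5.91 in SMiG and 6.36 in C6, and Polr1e, of the subunit that joins Pol I to its initiation factors, at 6.88 in SMiG and 7.32 in C6. Polr1f, of the stalk, had a difference of −0.34.

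Genes of Pol I and its factors did not lie together throughout. Polr1d, whose product pairs with that of Polr1c in both Pol I and Pol III, was the most positive of the 50 at 9.27 in SMiG and 8.84 in C6, which is 0.43 higher. Ubtf, encoding the factor that coats active ribosomal DNA, was nearly level at 7.83 in SMiG and 7.82 in C6. The largest subunit gene Polr1a had 2 probe sets that disagreed. The brighter gave 6.36 in SMiG and 6.83 in C6, for a gap of −0.47. The dimmer, below both floors, gave 4.83 in SMiG and 4.78 in C6, and it pulled the gene's mean difference to −0.21.

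Factors of the 40S subunit and its processome, the large particle that forms on the new precursor RNA, were the group with the most members at the low end. Of 19 genes 17 (89.5%) were lower in SMiG, against 50.4% of detected genes, and their median was −0.50. By at least 1.5-fold 7 (36.8%) were lower, against 15.1%. Wdr43 was lowest at 7.94 in SMiG and 8.87 in C6, which is 1.91-fold lower. Its product belongs to UTP-A, the early subcomplex that links ribosomal DNA transcription to processing. The other UTP-A genes among the 50 lay on the same side. Wdr75 stood at 7.46 in SMiG and 8.14 in C6. Utp4, encoding cirhin, stood at 8.82 in SMiG and 9.31 in C6, and Utp15 at 6.74 in SMiG and 7.20 in C6. Heatr1, a UTP-A gene outside the rule, had a difference of −0.64.

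The UTP-B subcomplex, a second building block of the processome, was also lower but less evenly so. Wdr36 stood at 7.05 in SMiG and 7.85 in C6, a 1.74-fold gap. Utp18 had a difference of −0.50, Wdr3 of −0.44 and Utp6 of −0.13. Of their partners outside the rule, Tbl3 had −0.20 and Pwp2 −0.04. With them, 1 of 6 UTP-B genes (16.7%) was lower by at least 1.5-fold, near the 15.1% of detected genes. Of the 5 UTP-A genes considered here, which may not be the whole subcomplex, 3 (60%) were lower by that margin. The gap between the subcomplexes was not tested.

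Later and peripheral 40S factors spread from low to level. Utp25 was at 6.80 in SMiG and 7.54 in C6, Utp11 at 8.19 in SMiG and 8.88 in C6, and Utp23 had a difference of −0.67. Each of the 3 was between 1.59-fold and 1.66-fold lower. Nob1, encoding the endonuclease that makes the last cut at the end of 18S rRNA, was 1.57-fold lower at 7.51 in SMiG and 8.16 in C6. Utp20, encoding a very long scaffold protein, had a difference of −0.54, Nop9 of −0.37 and Utp3 of −0.27. Rrp7a had −0.16 and Rrp36 −0.09. The only positive values of the group were 0.17 for Rrp9, a protein of the U3 snoRNP, at 6.78 in SMiG and 6.62 in C6, and 0.04 for Nop14, at 7.80 in SMiG and 7.76 in C6.

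The snoRNP group, which modifies the RNA, was split. Fbl, encoding fibrillarin, the methyltransferase of box C/D snoRNPs, stood at 7.06 in SMiG and 7.66 in C6, which is 1.52-fold lower. Its core partners differed less. Nop58 stood at 9.09 in SMiG and 9.47 in C6. Nop56 had 2 probe sets, with differences of −0.04 at the brighter and −0.32 at the dimmer, and a mean of −0.18. Nolc1, encoding Nopp140, a chaperone that accompanies snoRNPs in the nucleolus and Cajal bodies, was higher in SMiG at 7.96 against 7.60 in C6, a difference of 0.36. Nopchap1, encoding a helper in the assembly of NOP58 known from human cells, had a difference of −0.43. Ncl, encoding nucleolin, an abundant RNA-binding protein of the nucleolus, had 2 probe sets that lay close together. One gave 10.40 in SMiG and 10.77 in C6, and the other 9.27 in SMiG and 9.69 in C6, differences of −0.36 and −0.42.

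Among 60S factors, 9 of 12 (75%) were lower in SMiG, against 50.4% of detected genes, with a median of −0.27. By at least 1.5-fold 3 (25%) were lower, against 15.1%. The GTPase gene Gnl2 had the largest gap of the 50 at 7.61 in SMiG and 8.59 in C6, 1.98-fold lower. Its relative Gnl3, encoding nucleostemin, a nucleolar GTPase known for its high level in neural stem cells and tumour cells, stood at 7.31 in SMiG and 8.09 in C6, 1.72-fold lower. Rrp15 was 1.63-fold lower at 5.66 in SMiG and 6.37 in C6. Nop2, encoding a methyltransferase of 28S rRNA, had a difference of −0.49 and Ebna1bp2 of −0.28. Rrp8, counted apart from the 60S group, encodes another 28S rRNA methyltransferase and lay just inside the threshold at 5.73 in SMiG and 6.33 in C6.

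The 3 proteins of the PeBoW complex, which act as 1 unit in processing 60S precursors, did not share a direction. Wdr12 stood at 6.64 in SMiG and 7.17 in C6. Pes1 stood at 7.47 in SMiG and 7.73 in C6, but Bop1 was higher in SMiG at 7.62 against 7.33 in C6. The paralogs Rrp1 and Rrp1b, both on chromosome 20, had differences of 0.04 and −0.21. Nop53, encoding a factor that recruits the RNA exosome, was higher in SMiG at 7.92 against 7.67 in C6, and Nop16 was nearly level at −0.07. Of the genes in this paragraph, Wdr12 alone differed by more than the SD of the silent genes, which was measured at lower signal.

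**Figure D3:**
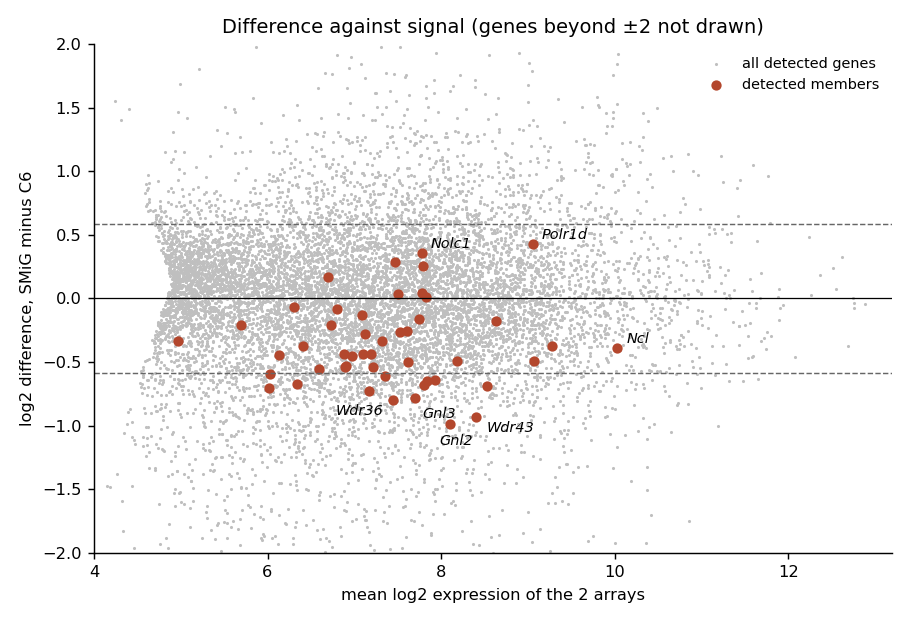
Log2 difference, SMiG minus C6, against the mean log2 expression of the 2 arrays, for the detected members (red) and all detected genes (grey), with dashed lines at 1.5-fold. The members' differences show no slope with signal, and 183 detected genes beyond 2 on either side are not drawn.

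The difference did not follow the signal. Over the 47 genes above both floors, it correlated with the mean of the arrays with a Pearson r of 0.05 and a Spearman rho of −0.01. These points are genes that share the same 2 arrays and are not replicates. Among the 8175 genes above both floors whose mean signal lay within the range of those 47, 51.8% were lower in SMiG, with a median of −0.03, and 15.4% were lower by at least 1.5-fold.

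Other genes of the pathway, on lists made of known factors, were also mostly lower in SMiG. These lists were chosen with earlier results of these data known, so they are not independent of the 50 genes. Of 95 further detected factors of the 40S, the 60S and the snoRNPs, 73 (76.8%) were lower, against 50.4% of detected genes, with a median of −0.33. By at least 1.5-fold 19 were lower, which is 20.0% against 15.1% of detected genes, and none was higher against 10.4%. In the 40S list 11 of 38 (28.9%) were lower by that margin. The kinase genes Riok3, at 8.18 in SMiG and 9.33 in C6, and Riok1, at 6.53 in SMiG and 7.49 in C6, led it, and Nol6, at 0.37, stood at its other end with Dhx37. In the 60S list 5 of 43 (11.6%) were lower by that margin, a smaller share than the 15.1% of detected genes. Its low end held Tma16 at −0.89 and Nvl at −0.87, and its high end Ddx54 at 0.38 and Afg2a at 0.35. In the snoRNP list 3 of 14 (21.4%) were lower by that margin. Its lowest were Ruvbl1, at 6.89 in SMiG and 8.05 in C6, and Ruvbl2, at 7.54 in SMiG and 8.56 in C6, which encode the paired ATPases that help assemble snoRNPs and other complexes. Both were past 2-fold, and Shq1 was highest at 0.09.

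Lists next to the pathway varied. Of detected genes as a whole, 50.4% were lower, 15.1% by at least 1.5-fold. The RNA exosome and related nucleases had 12 of 17 lower with a median of −0.23 and none past 1.5-fold, from −0.58 for Mtrex to 0.35 for Exosc4. Ribosomal proteins, the cargo of the pathway, had 35 of 51 lower with a median of −0.08, and 4 (7.84%) were lower by at least 1.5-fold. Their probe sets can share signal with near-identical copies, so single genes are uncertain. Pol III, its initiation factors and its repressor Maf1 had 7 of 17 lower and a median of 0.04. Polr3c at −1.03 and Polr3f at −0.88 were at one end, and Gtf3c4 at 0.59 and Brf1 at 0.48 at the other. Maf1 itself had a difference of 0.45. Pol II subunits had 5 of 8 lower and a median of −0.06, from −0.62 for Polr2i to 0.76 for Polr2a. Of the subunits common to the 3 polymerases, Polr2e and Polr2f were at 0.43 and 0.42 and Polr2h at −0.20. Of the snoRNA host genes 3 were measured, and 2 of them were detected, Snhg4 at −0.76 and Gas5 at −0.25.

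Regulators of ribosomal DNA were on both sides, with 9 of 15 lower and a median of −0.08. Tcof1, encoding treacle, the nucleolar protein that recruits Pol I and processing factors, was lowest at 7.51 in SMiG and 8.78 in C6, past 2-fold. Taf1b, of the factor SL1 that positions Pol I, was at 5.66 in SMiG and 6.30 in C6. Tbp and Taf1d, of the same factor, were also on the low side, with differences of −0.53 and −0.45. Taf1c, likewise of SL1, was higher in SMiG at 6.67 against 6.22 in C6. Myc was the highest of the list at 8.57 in SMiG and 7.64 in C6. Any part of Myc in the values above was not tested. The differences between any of these lists and the 50 genes were not tested.

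**Figure D4:**
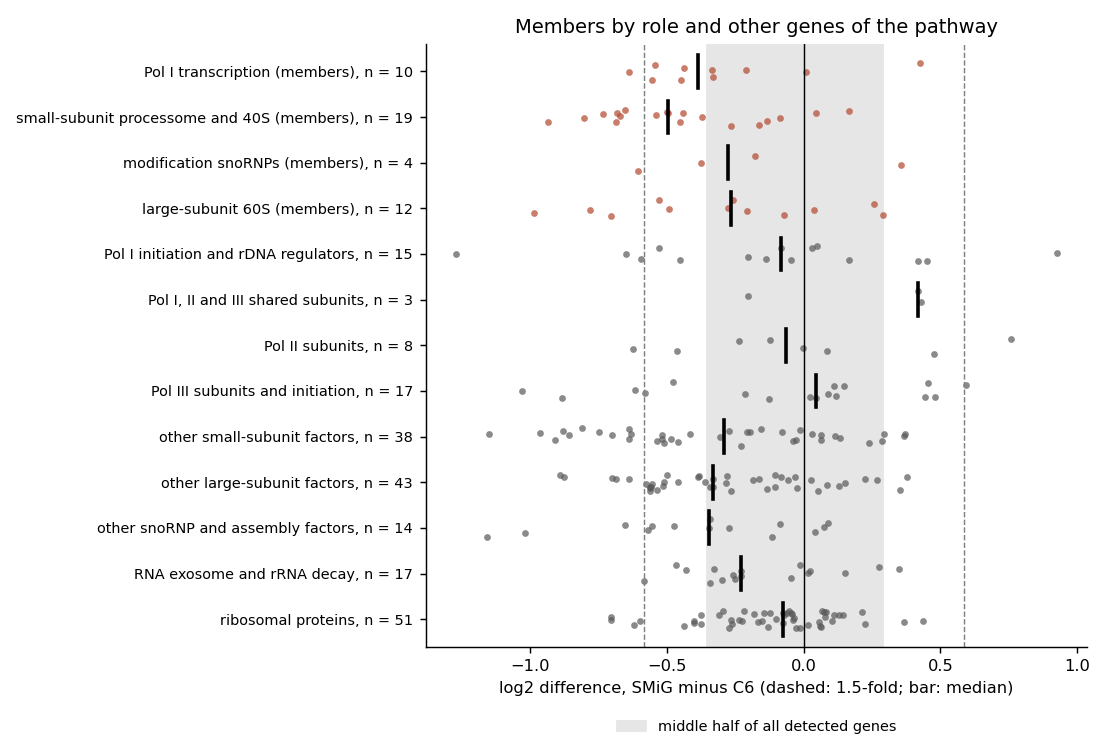
Log2 difference, SMiG minus C6, of each detected gene (points) by role among the members (red) and by list of other genes (grey), with the median of each row as a bar, the interquartile range of all detected genes shaded and 1.5-fold dashed. The medians of the 4 member groups drawn lie between −0.50 and −0.27 (nucleolin and the other members are not drawn), and those of ribosomal proteins and of Pol II and Pol III genes between −0.08 and 0.04.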

How the data were processed

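RNA of 1 SMiG and 1 C6 culture was made into biotin-labelled sense cDNA for a whole-transcript GeneChip, per the labels' protocols. The authors deposited log2 values of 36685 probe sets on each array. How background was corrected, how the arrays were normalized and which log base was used is not stated in the labels. Base 2 was inferred from a highest value of 13.1, above 11.1, the natural log of the highest 16-bit scanner value. The column medians were 4.86 (SMiG) and 4.84 (C6), so a difference is relative to the other transcripts, and a change in total RNA per cell would not show. No further normalization was applied.

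Genes were named from the platform annotation where a probe set had 1 symbol (18511 probe sets, with 575 of several symbols and 17599 of none left out). All 50 member genes matched RefSeq of the GRCr8 assembly by symbol and gene number. Probe sets of 1 gene were averaged, and 1.5-fold and 2-fold were the thresholds. The members, lists and motifs were chosen with earlier results of these data known. Rat symbols replaced by newer ones were followed through RefSeq synonyms. The rule for named genes took each member past 1.5-fold, the extremes of each role group, the 6 members of highest signal and the 2 extremes at each end of each list. The procedure was tested on simulated data. With 1 array per group the number of arrays limits the precision. Values were computed in Python 3.11.15 with pandas 2.3.3 and numpy 2.4.6, the lowess trend with statsmodels 0.14.6, rank correlations with scipy 1.17.1 and figures with matplotlib 3.10.9.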

Additional observations from a re-analysis of the deposited data

How the results depend on the processing

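The members were recomputed with a stricter floor (99th percentile of the silent genes), without a floor, with dim values raised to the floor, after median centring, after taking out a lowess trend (span 0.3), after quantile normalization, with only a gene's brightest probe set, and with probe sets kept separate. Over these 8 settings, the median of the detected members ranged from −0.44 to −0.38. The number lower in SMiG was 40 genes, except for 38 of 46 genes under the stricter floor and 42 of 50 probe sets kept separate. The number lower by at least 1.5-fold ranged from 11 to 13. The 11 came from the lowess and quantile settings, where Fbl (−0.57 and −0.55) and Rrp8 (−0.58 and −0.54) no longer passed. None passed 2-fold or was 1.5-fold higher in any of them. Among the role groups and the 9 lists with at least 3 detected genes, none had its median moved by over 0.1. The snoRNA host list, with 2 detected genes, was not run. No detected member moved by over 0.32, the SD of the silent genes, which is a wide limit beside these differences. Polr1a moved most, from −0.21 to −0.47 with only its brightest probe set. Polr1g went from −0.33 to −0.17 with dim values raised to the floor. No paired analysis was possible because each group has 1 array, and no array could be left out. Signal limits Polr1g, Nop10 and Polr1has, which lie near or below the floor.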
